A study of Mus musculus with 8 samples.

Results

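The 44 genes described here code for the machinery that copies DNA in S phase: the proteins that load and fire the replicative helicase, the polymerases with their clamp and clamp loader, single-strand binding and lagging-strand proteins, enzymes of deoxynucleotide supply, proteins that copy chromatin, and regulators of the G1/S step. They were chosen by name, as a list, and found through the accession of each probe. The list matched 50 of the 39429 probes on the array. Of the 44 genes, 43 entered the tests, because a probe stood well above background in all channels of some age, among 21941 genes in all. Ccne2, which codes for a cyclin of the G1/S step, was left out: its probe was well above background in 1 of 6 adult, 0 of 4 P5 and 1 of 6 P10 channels.

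The samples were microvessels enriched from mouse forebrain at 5 days (P5) and 10 days (P10) after birth and in adulthood, passed through a filter for small particles. No genotype, treatment or transgene is given in the labels, and the strain, the sex, the exact adult age and the number of pooled animals are not given in the sources used here. The 8 two-colour arrays each paired RNA of 2 ages, with 2 replicates per age and 1 slide of 4 arrays per replicate. P5 RNA carried Cy5 on every array that held it, whereas P10 and adult RNA were measured in both dyes. The labels do not say whether the replicates came from separate animals or pools, so the p-values reflect no more than how far these samples spread, and that spread could be technical. Between 65.2% and 73.3% of spots per channel and array were well above background, and 2 replicates per age limit the precision. All 12 endothelial markers examined were above background at each age.

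Before S phase, the origin recognition complex with Cdc6 and Cdt1 places the ring of Mcm2 to Mcm7 around DNA, and Cdc45 and the GINS complex turn that ring into a moving helicase. Most of these genes are known targets of E2F transcription factors and are transcribed as cells leave the resting state. In growing brain vessels, endothelial cells divide as sprouts extend, and most leave the cell cycle once the network matures.

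A difference is given here on a log2 scale as the first age minus the second, with the value of each replicate and a standard error (SE), so that a difference of 1 is a 2-fold change. Levels are normalised log2 signals per age and replicate, each an average over the channels that held that RNA, and can be compared only between samples of the same gene. Unlike the differences, levels carry no correction for dye, so those at P5, always in Cy5, can hold dye bias. The gap between levels can therefore depart from the printed difference, and overlap between ages refers to levels. A gene is called higher or lower where its limma adjusted p, taken over all 21941 genes, is below 0.05. The 3 comparisons share samples, so their values are set side by side and are not independent of each other.

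Because the listed genes are known for E2F control, promoter windows of RefSeq (assembly GRCm38.p6, 250 bases before to 50 after each start) were searched on both strands for the E2F-type words TTTCCCGC, TTTCGCGC, TTTGCCGC and TTTGGCGC and for CCAAT. A window was given for 37 of the 44 members, and 15 of the 37 (40.5%) held an E2F-type word, against 2.6% of the 27025 genes with a window. Upstream of the start alone, 10 of 37 (27.0%) held one, against 2.16% of genes. CCAAT or its complement was in 22 of 37 (59.5%), against 41.1% of genes over the whole window. The 180 bases upstream of the start are shown for the MCM ring genes, whose responses differed within a single complex, and for Gins3, which was called at neither age. Capitals mark the E2F-type words and CCAAT on either strand. The windows lie at chr6:88898781-88898960 (Mcm2, minus strand), chr1:20820313-20820492 (Mcm3, minus), chr8:75109329-75109508 (Mcm5, plus), chr1:128359706-128359885 (Mcm6, minus), chr5:138171884-138172063 (Mcm7, minus, the one of its windows with an E2F-type word) and chr8:95633379-95633558 (Gins3, plus). No window was given for Mcm4.
Mcm2: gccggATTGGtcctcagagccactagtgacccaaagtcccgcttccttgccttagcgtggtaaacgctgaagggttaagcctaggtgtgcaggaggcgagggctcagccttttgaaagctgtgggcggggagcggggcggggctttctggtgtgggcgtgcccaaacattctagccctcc
Mcm3: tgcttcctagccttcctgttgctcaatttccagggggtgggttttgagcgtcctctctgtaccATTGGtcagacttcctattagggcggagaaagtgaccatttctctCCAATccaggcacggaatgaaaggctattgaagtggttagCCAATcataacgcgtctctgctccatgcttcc
Mcm5: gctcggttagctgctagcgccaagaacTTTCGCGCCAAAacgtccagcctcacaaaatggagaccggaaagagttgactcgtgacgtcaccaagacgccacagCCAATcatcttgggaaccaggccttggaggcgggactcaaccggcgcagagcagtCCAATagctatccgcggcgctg
Mcm6: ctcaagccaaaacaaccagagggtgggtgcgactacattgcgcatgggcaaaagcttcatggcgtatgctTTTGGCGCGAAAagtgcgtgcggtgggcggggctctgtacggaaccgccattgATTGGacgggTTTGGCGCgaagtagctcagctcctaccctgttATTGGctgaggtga
Mcm7: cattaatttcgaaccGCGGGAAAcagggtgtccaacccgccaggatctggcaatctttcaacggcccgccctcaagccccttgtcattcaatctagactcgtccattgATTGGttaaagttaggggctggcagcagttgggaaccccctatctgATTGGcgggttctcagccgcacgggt
Gins3: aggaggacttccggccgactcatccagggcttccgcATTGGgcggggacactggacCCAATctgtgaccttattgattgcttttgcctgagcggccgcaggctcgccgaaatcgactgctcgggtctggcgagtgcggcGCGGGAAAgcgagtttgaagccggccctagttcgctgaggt
In Mcm5 a plus-strand TTTCGCGC overlaps a minus-strand match of TTTGGCGC, and the first run of capitals after the start of the Mcm6 sequence is likewise 2 overlapping words. Mcm6 holds a further TTTGGCGC nearer its start, whereas Mcm2 and Mcm3 hold none of the 4 words in the stretch shown. Among members with a window, 9 of the 26 called higher at P5 than adult held an E2F-type word (34.6%), and 6 of the 11 not called did (54.5%). At P10 the counts were 13 of 31 (41.9%) and 2 of 6 (33.3%). A match describes the letters of the window and is no evidence of binding.

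Replication genes were higher in postnatal than in adult microvessels, and more of them at P10 than at P5. At P5, 30 of the 43 measured members were called higher than adult (69.8%), where 30.1% of all genes tested were. The limma test called 0 members lower at P5, against 23% of all genes, and 1 member, Pole2, fell below an unadjusted p of 0.05 in that direction. At P10, 35 of 43 were called higher (81.4%), against 8.42% of all genes, and 0 were called lower by limma, with 0 lower at an unadjusted p under 0.05, against 9.1% of all genes called lower. The median difference from adult over the members was 0.70 at P5 (0.69 and 0.71 by replicate) and 0.92 at P10 (1.16 and 0.72), while the median over all genes was 0.09 and 0.01. At least a 2-fold rise was called for 15 members at P5 (12.7% of all genes) and for 20 at P10 (2.73% of all genes). At P5, 40 members lay above adult in both replicates (49.5% of genes). All 43 did so at P10, which held for 37.5% of genes, and the difference was larger in replicate 1 for 37 of them.

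**Figure D1:**
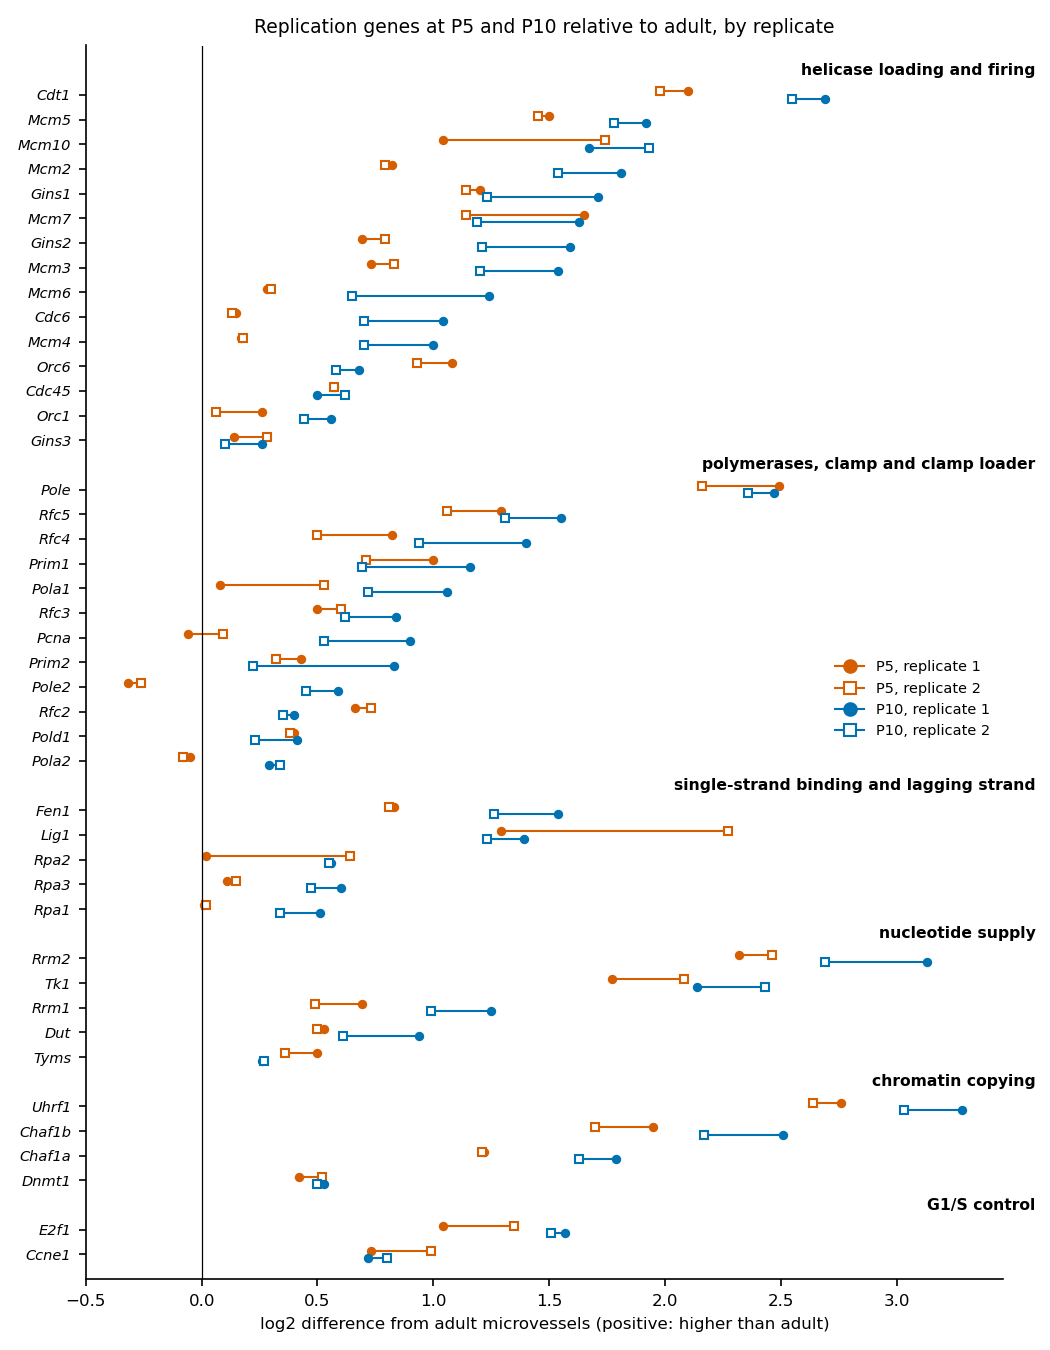
Each row is 1 of the 43 measured replication genes, grouped by role, and the horizontal axis is the log2 difference from adult microvessels. Orange marks are P5 and blue marks are P10, with filled circles for replicate 1 and open squares for replicate 2. All blue marks lie right of 0, up to 3.28 for Uhrf1, whereas a few orange marks, those of Pole2 and Pola2 among them, lie left of it.

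The 15 genes of helicase loading and firing were mostly higher than adult, with medians of 0.78 and 1.37. At P5 10 were called (66.7%, against 30.1% of all genes) and at P10 14 (93.3%, against 8.42%). Cdt1, which brings the MCM ring to the origin, was at 8.08 and 8.08 in adult, 10.18 and 10.05 at P5, and 10.81 and 10.67 at P10. Its 3 ages did not overlap, and it differed from adult by 2.04 at P5 (2.10 and 1.98, SE 0.10, limma adjusted p = 0.000574) and by 2.62 at P10 (2.69 and 2.55, SE 0.10, adjusted p = 0.00174). Cdc6, the ATPase that works with Cdt1, was at 6.29 and 6.35 in adult, where 1 of 6 channels was well above background, at 6.40 and 6.46 at P5, and at 7.27 and 6.99 at P10. The P10 samples of Cdc6 stood clear of the adult ones and the P5 samples lay close to them, with differences of 0.14 at P5 (SE 0.13, adjusted p = 0.385) and 0.87 at P10 (SE 0.13, adjusted p = 0.0157).

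Orc1 and Orc6, the subunits of the origin recognition complex among the members, differed in which of the younger ages had the higher estimate. Orc6 was at 9.24 and 9.34 in adult, 10.44 and 10.20 at P5, and 9.93 and 9.95 at P10. It was higher than adult by 1.0 at P5 (1.08 and 0.93, SE 0.10, limma adjusted p = 0.00216) and by 0.63 at P10 (0.68 and 0.58, SE 0.10, adjusted p = 0.018). Orc6 was also the single member called higher at P5 than at P10, by 0.37 (SE 0.10, adjusted p = 0.0382), against 23% of all genes called in that direction. That difference turned to -0.12 (adjusted p = 0.664) where arrays were centred on their median in place of loess. Orc1, the ATPase subunit that varies over the cell cycle, was at 6.07 and 6.11 in adult, 6.23 and 6.16 at P5, and 6.57 and 6.54 at P10. No adult channel of Orc1 was well above background, against 1 of 4 P5 and 6 of 6 P10 channels, so its level at P10 is given as at least 1.32-fold higher than in adult (adjusted p = 0.036). Its P5 minus P10 difference of -0.34 was not called (adjusted p = 0.0514). Orc1 passed the background filter through P10 alone, so its higher level at P10 is tied to that filter. The bound sets the P10 mean of 6.55 against 6.15, taken per array as the higher of the probe's own signal and the lowest signal of any probe well above background.

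The 6 genes of the MCM ring, whose proteins form a single hexamer, did not move by the same amount. At P5, Mcm5 and Mcm7 were 1.47 and 1.40 above adult, Mcm2 and Mcm3 were 0.80 and 0.78 above it, and all 4 were called higher. Mcm4 and Mcm6 were 0.17 and 0.29 above adult at P5 and were not called (limma adjusted p = 0.277 and 0.228). At P10 all 6 were called, at 1.85 for Mcm5, 1.68 for Mcm2, 1.41 for Mcm7, 1.37 for Mcm3, 0.95 for Mcm6 and 0.85 for Mcm4. Mcm2 had the largest difference between P5 and P10 of all members tested: its levels were 7.80 and 8.03 in adult, 8.64 and 8.75 at P5, and 9.62 and 9.54 at P10, and P5 lay 0.87 below P10 as -1.0 and -0.75 by replicate (SE 0.12, adjusted p = 0.00888). Mcm7 differed between P5 and P10 by -0.01 (95% interval -0.41 to 0.39), with 11.03 and 10.71 at P5 and 11.05 and 10.76 at P10. Of the promoters shown, those of Mcm5, Mcm6, Mcm7 and Gins3 hold an E2F-type word, and the differences of these 4 genes from adult at P5 ranged from 0.21, which was not called, to 1.47.

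Among the firing factors, Gins1 and Gins2, subunits of the GINS complex, were called higher at both ages, by 1.17 and 0.74 at P5 and by 1.47 and 1.40 at P10. Gins3, a further subunit, was at 12.16 and 11.89 in adult, 12.20 and 12.15 at P5, and 12.46 and 11.97 at P10. The ages of Gins3 overlapped, and its differences of 0.21 at P5 and 0.18 at P10 (SE 0.12 each) were not called, with limma adjusted p-values of 0.176 and 0.376. Cdc45, which bridges GINS and the ring, was higher by 0.57 at P5 and 0.56 at P10. Mcm10, which helps activate the helicase, was higher by 1.39 and 1.80, although its replicates at P5 stood apart at 1.04 and 1.74.

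**Figure D2:**
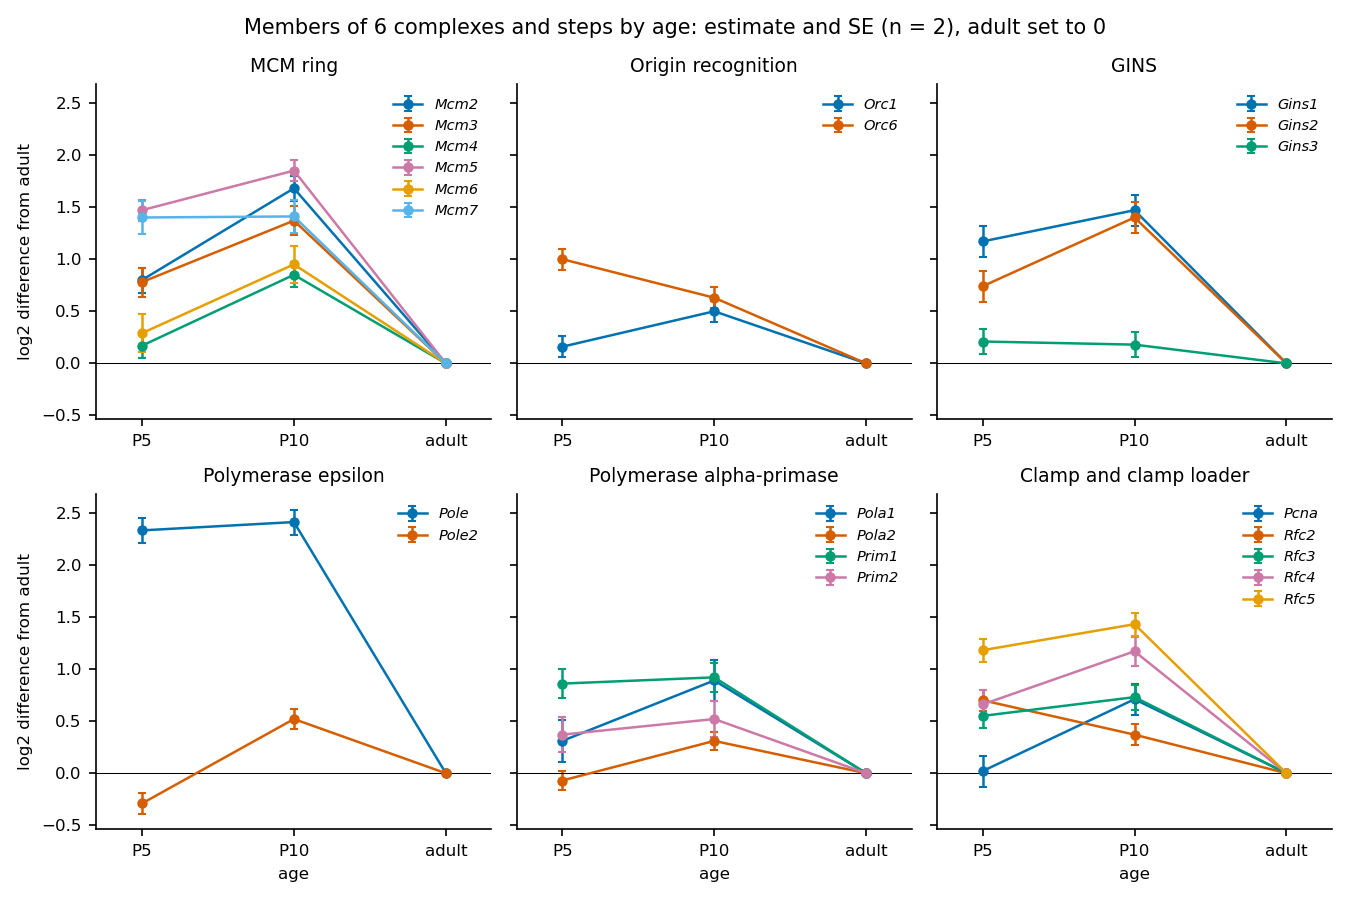
Each panel is a complex or step, the horizontal axis is age in equal steps that are not to scale, and the vertical axis is the log2 difference from adult, which is 0 by construction. Points are estimates and bars are SE over 2 replicates. Pole lies above 2 at P5 and P10 while its partner Pole2 lies at -0.29 and 0.52, and the MCM genes spread from 0.17 to 1.47 at P5.

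Of the 12 genes for polymerases, clamp and clamp loader, 7 were called higher at P5 (58.3%, against 30.1% of all genes) and 8 at P10 (66.7%, against 8.42%). Their medians were 0.47 and 0.72. The subunits of polymerase epsilon, the leading-strand enzyme, differed more from each other than those of the other complexes listed. Pole, its catalytic subunit, was at 7.20 and 6.93 in adult, 9.48 and 9.05 at P5, and 9.71 and 9.32 at P10. It was higher by 2.33 at P5 (2.49 and 2.16, SE 0.12, limma adjusted p = 0.000619) and by 2.41 at P10 (2.47 and 2.36, SE 0.12, adjusted p = 0.00213), which is 5.02-fold and 5.32-fold. Pole2, its second subunit, was at 7.08 and 7.11 in adult, 6.73 and 6.77 at P5, and 7.71 and 7.51 at P10. All Pole2 levels at P5 were thus below those of adult and all at P10 above them, with differences of -0.29 (SE 0.10, adjusted p = 0.0679) and 0.52 (SE 0.10, adjusted p = 0.0333). The direct difference of P5 from P10 for Pole2, -0.81 (-0.91 and -0.71, SE 0.10, adjusted p = 0.00844), had the lowest adjusted p of the members in that comparison. A second Pole probe was not well above background in every channel of any age and was not kept.

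In the polymerase alpha-primase complex, which lays down primers, Prim1, the catalytic primase subunit, was called higher at both ages, by 0.86 and 0.92. Pola1, the catalytic polymerase subunit, was called at P10 (0.89, limma adjusted p = 0.044) and not at P5 (0.31, adjusted p = 0.246). Pola2 and Prim2, their partner subunits, were called at neither age, with differences of -0.07 and 0.37 at P5 and 0.31 and 0.52 at P10. The Pola2 probe was well above background in 3 of 6 adult and 3 of 4 P5 channels. Pold1, the catalytic subunit of polymerase delta, was higher at P5 by 0.39 (SE 0.10, adjusted p = 0.029), a difference that vanished with median centring (adjusted p = 0.993), and lay 0.32 above adult at P10 (adjusted p = 0.105).

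Pcna, the sliding clamp that holds polymerases on DNA, was called higher than adult at P10 and not at P5. Its levels were 11.19 and 11.74 in adult, 11.27 and 11.63 at P5, and 12.12 and 12.17 at P10. The P5 and adult samples of Pcna interleaved, at a difference of 0.02 (-0.06 and 0.09, SE 0.15, limma adjusted p = 0.933), whereas P10 lay 0.71 above adult (0.90 and 0.53, adjusted p = 0.0398) and P5 lay 0.70 below P10 (adjusted p = 0.0237). Of the clamp loader genes, Rfc3, Rfc4 and Rfc5 were called higher at both ages, from 0.55 to 1.18 at P5 and from 0.73 to 1.43 at P10. Rfc2, a further loader subunit, was called at P5 (0.70, adjusted p = 0.00501) and not at P10 (0.37, adjusted p = 0.0611), and its own difference between P5 and P10 was not called (0.32, adjusted p = 0.0515). Rfc4 was called lower at P5 than at P10 (-0.51, adjusted p = 0.0416), as was Rfc1, the large loader subunit, which is not among the 44 (-0.42, adjusted p = 0.0308) and was called at neither age against adult (-0.25 and 0.18).

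Among the 5 genes for single-strand binding and the lagging strand, 2 were called higher at P5 (40%, against 30.1% of all genes) and 3 at P10 (60%, against 8.42%). Fen1, the nuclease that trims Okazaki fragments, was at 9.99 and 9.97 in adult, 10.73 and 10.72 at P5, and 11.56 and 11.27 at P10, without overlap between ages. It was higher by 0.82 at P5 (limma adjusted p = 0.00536) and by 1.40 at P10 (adjusted p = 0.00446). Lig1, the ligase that seals the fragments, had the widest SE of the members, 0.30: its P5 levels were 10.62 and 12.43, against 9.84 and 10.18 in adult and 10.81 and 11.40 at P10. Both P5 samples of Lig1 were above adult, by fitted differences of 1.29 and 2.27. The P5 replicates lay farther apart than the P5 and P10 estimates, whose difference of 0.47 was not called (adjusted p = 0.25).

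The genes of replication protein A, the trimer that coats single-stranded DNA, were not called at P5. Rpa1, Rpa2 and Rpa3 lay 0.01, 0.33 and 0.13 above adult at P5, with limma adjusted p-values of 0.917, 0.193 and 0.31. At P10 they lay 0.42, 0.56 and 0.54 above adult, and Rpa3 alone was called (adjusted p = 0.0286). Rpa1 and Rpa3 were each 0.41 lower at P5 than at P10 (adjusted p = 0.0337 and 0.0318). The Rpa2 replicates at P5 disagreed, at 0.02 and 0.64.

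All 5 genes of nucleotide supply were called higher at P5 (against 30.1% of all genes) and 4 at P10 (80%, against 8.42%). Rrm2, the regulatory subunit of ribonucleotide reductase, which makes deoxynucleotides, was at 7.71 and 7.75 in adult, 9.92 and 10.20 at P5, and 10.82 and 10.45 at P10. Both younger ages of Rrm2 stood far above adult, by 2.39 (SE 0.17, limma adjusted p = 0.00101) and 2.91 (SE 0.17, adjusted p = 0.00225). Rrm1, the catalytic subunit of the same enzyme, was higher by 0.59 and 1.12. Tk1, the thymidine kinase of dividing cells, was at 7.33 and 7.26 in adult, 8.84 and 9.36 at P5, and 9.67 and 9.87 at P10, which gave differences of 1.92 and 2.28. Dut, which removes dUTP, was higher by 0.52 and 0.78. Tyms, which makes thymidylate, was higher by 0.43 at P5 (adjusted p = 0.0208) and lay 0.27 above adult at P10 (adjusted p = 0.149), and the difference between those ages was not called (0.16, adjusted p = 0.24).

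The 4 genes of chromatin copying were all called higher at both ages (against 30.1% of all genes at P5 and 8.42% at P10). They had the highest medians of the role groups, 1.52 at P5 and 2.02 at P10. Uhrf1, which binds hemimethylated DNA behind the fork, was at 7.89 and 7.66 in adult, 10.61 and 10.33 at P5, and 11.13 and 10.71 at P10. It had the largest difference of all members at both ages, 2.70 at P5 (2.76 and 2.64, SE 0.11, limma adjusted p = 0.000525) and 3.15 at P10 (3.28 and 3.03, SE 0.11, adjusted p = 0.00168). A second Uhrf1 probe, of another transcript accession, was not well above background in any adult channel, so only bounds are given: at least 1.14-fold above adult at P5 (limma adjusted p over all kept probes = 0.123) and at least 1.5-fold at P10 (adjusted p = 0.0384). Dnmt1, the maintenance methyltransferase that Uhrf1 recruits, was higher by 0.47 at P5 (0.42 and 0.52) and 0.52 at P10 (0.53 and 0.50). Chaf1a and Chaf1b, subunits of the histone chaperone CAF-1, were higher by 1.21 and 1.82 at P5 and by 1.71 and 2.34 at P10.

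Both measured G1/S genes were called higher at both ages (against 30.1% of all genes at P5 and 8.42% at P10). E2f1, a transcription factor that drives S-phase genes, was at 8.09 and 7.88 in adult, 9.24 and 9.09 at P5, and 9.67 and 9.43 at P10. Its differences were 1.2 (SE 0.13, limma adjusted p = 0.00266) and 1.54 (SE 0.13, adjusted p = 0.00457), and the ages did not overlap. Ccne1, the cyclin partner of Cdk2 at the G1/S step, was higher by 0.86 and 0.76. With each kept probe tested on its own and p-values adjusted over all kept probes, some second probes gave other calls. The second Cdc6 probe, above background in 0 of 6 adult channels, passed limma at P5 (adjusted p = 0.0295), where the brighter one did not. At P10 the second Cdc6 probe was at least 1.85-fold above adult. This second probe passed the background filter through P10 alone, so its higher level at P10 is tied to that filter. Its call at P5 rests on adult signals that were not well above background. The second Rfc4 probe was not called at P5 (0.31, adjusted p = 0.0607) and the second Ccne1 probe was not called at P10 (0.32, adjusted p = 0.106). Both Chaf1b probes were called higher at both ages.

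Compared directly, P5 lay below P10 for much of the list: 19 of the 43 members were called lower at P5 (44.2%), where 18.2% of all genes were. The median P5 minus P10 difference was -0.38 (-0.50 and -0.25 by replicate), against 0.06 over all genes, and 29 members were below 0 in both replicates, which held for 37.6% of genes. On the arrays that carried P5 and P10 RNA together, 27 members were lower at P5 in both replicates. Both arrays held P5 in Cy5 and P10 in Cy3, so this count can hold dye bias. They are part of the same fit, so the count is not independent of the calls, and the share of all genes was not counted there. Of the 19, 8 were helicase genes (Cdc6, Cdt1, Mcm2, Mcm3, Mcm4, Mcm5, Mcm6 and Gins2) and 4 belonged to polymerases and clamp (Pola2, Pole2, Pcna and Rfc4). The others were Rpa1, Rpa3 and Fen1, the reductase subunit Rrm1, and Chaf1a, Chaf1b and Uhrf1 of chromatin copying. For 11 of these 19 the level at P5 was still called above adult. Pola2 passed the background filter through P10 alone, so its lower level at P5 is tied to that filter.

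**Figure D3:**
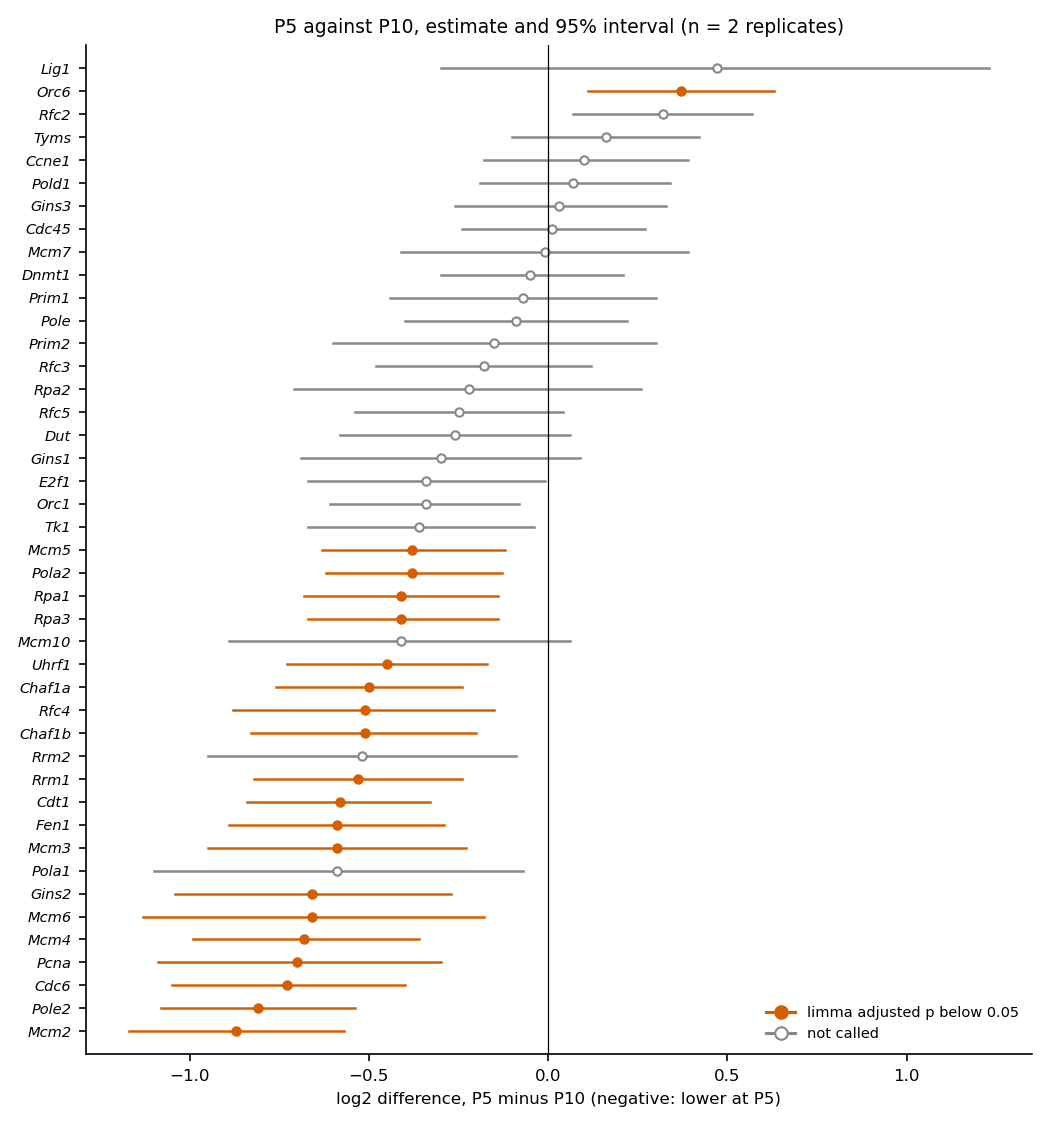
Each row is 1 measured member, ordered by the log2 difference of P5 minus P10 on the horizontal axis, with its 95% interval over 2 replicates. Filled orange points passed a limma adjusted p of 0.05 and open grey points did not. Orc6 at 0.37 is the single orange point right of 0, and Mcm2 at -0.87 is the lowest.

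By age pattern, 27 members were called higher at both ages, 8 at P10 and not at P5, 3 at P5 and not at P10, and 5 at neither. Of all genes tested, 30.1% were called higher at P5 and 8.42% at P10, and their shares by joint pattern were not counted. For 6 of the 8 (Cdc6, Mcm4, Mcm6, Pole2, Pcna and Rpa3) the difference between P5 and P10 was itself called, whereas for Orc1 (-0.34, limma adjusted p = 0.0514) and Pola1 (-0.59, adjusted p = 0.071) it was not. None of the 3 members called at P5 and not at P10 (Pold1, Rfc2 and Tyms) had a called difference between those ages. Without the replicate as a block, on separate channels, the counts of members called became 22 higher at P5, 23 higher at P10 and 10 lower at P5 than P10. With the background model fitted on every spot, faulty ones included, they became 5, 1 and 0 (15, 33 and 10 at an unadjusted p under 0.05), and with median centring the first 2 counts became 18 and 20. Over all 21941 genes the same counts were 4514, 812 and 2367 without the block, and 2769, 101 and 0 with every spot. The first 2 were 5019 and 666 with median centring. With every spot, the share of members called higher at P5 was thus no larger than that of all genes.

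Further genes of the same pathways, from lists beside the 44, were called in both directions. Of 37 measured genes of other replisome parts, 16 were called higher (43.2%, against 30.1% of all genes) and 7 lower (18.9%, against 23%) than adult at P5, and 12 higher at P10 (32.4%, against 8.42%), with medians of 0.33 and 0.18. Asf1b, a histone chaperone of dividing cells, rose by 1.63 and 2.35, while its paralogue Asf1a fell by 0.38 at P5 (limma adjusted p = 0.0344). Recql4, a helicase that acts in initiation, was higher by 1.22 at P5. Several partners of listed complexes went the other way at P5: Gins4, the fourth GINS subunit, differed by -0.52, Pole4, of polymerase epsilon, by -0.69, and Chtf8, of an alternative clamp loader, by -0.81. Pold4, of polymerase delta, differed by -0.61 (limma adjusted p = 0.0401), while Pold3, of the same enzyme, was 0.39 higher. Chtf18 and Dscc1, of the same loader as Chtf8, were called higher at P5, by 1.15 and 0.75. Timeless, of the fork protection complex, differed by -0.63, while its partner Tipin was 0.46 higher.

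Between the younger ages, 12 of the 37 were called lower at P5 than at P10 (32.4%, against 18.2% of all genes), with a median of -0.25. Another 4 were called higher (10.8%), a smaller share than the 23% of all genes. The 4 higher at P5 were Donson, Cdc7, Orc4 and Pold3, a polymerase delta subunit (0.41, limma adjusted p = 0.0261). Donson, a factor of helicase assembly, was 1.17 above adult at P5 and 0.06 at P10, and the difference of 1.12 between those ages was called (limma adjusted p = 0.00544). Cdc7, the kinase that triggers origin firing, was 0.95 above adult at P5 and 0.13 at P10 (difference 0.83, adjusted p = 0.0207). Orc4, of the origin recognition complex, was 0.69 above at P5 and -0.04 at P10 (difference 0.73, adjusted p = 0.0153). Of the 12 lower at P5, Gmnn, which codes for geminin, the inhibitor of Cdt1, lay 0.97 below P10 (adjusted p = 0.0122).

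Of 27 genes of other nucleotide synthesis, 7 were called higher (25.9%, against 30.1% of all genes) and 3 lower (11.1%, against 23%) at P5, and 9 higher (33.3%, against 8.42%) and 3 lower (11.1%, against 9.1%) at P10. The P5 share of higher calls is thus no larger than that of all genes. Dtymk, the next kinase after Tk1 in thymidine triphosphate synthesis, was higher by 0.95 and 0.59, and Mthfd2, of mitochondrial folate metabolism, by 0.86 at P5. At P10 Shmt2, of folate metabolism, was higher by 0.70. Called lower at both ages were Samhd1, which degrades deoxynucleotides (-1.04 and -0.71), Rrm2b, the reductase subunit of non-dividing cells (-1.01 and -0.71), and Impdh1, of guanine nucleotide synthesis (-1.03 and -0.59).

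Of 24 measured genes of other G1/S control, 8 were called higher (33.3%, against 30.1% of all genes) and 6 lower (25%, against 23%) at P5, and 12 higher (50%, against 8.42%) and 3 lower (12.5%, against 9.1%) at P10. E2f2, of the same family as E2f1, was higher by 4.34 at P5 and 2.44 at P10, and Ccna2, the S-phase cyclin, by 2.86 and 3.23. Lower at both ages were the inhibitors of cyclin-dependent kinases Cdkn1a (-1.75 and -1.44) and Cdkn1b (-0.64 and -0.48) and the retinoblastoma relative Rbl2 (-0.80 and -0.43). Ccnd1, a G1 cyclin, was 0.15 above adult at P5 (limma adjusted p = 0.35) and 1.15 above at P10, while Ccnd3, another G1 cyclin, was 0.92 below adult at P5. For Ccnd1 the difference of P5 from P10 was -1.0 (adjusted p = 0.00815) and for Ccnd3 it was -0.84 (adjusted p = 0.00767).

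In 13 measured genes of mitosis, 12 were called higher at P5 (92.3%, against 30.1% of all genes) and 13 at P10 (100%, against 8.42%). Their medians were 2.36 and 2.90, against 0.70 and 0.92 for the replication genes. In adult, 6 of the 15 listed mitosis genes were above background in no channel, so these medians rest in part on adult signals at the detection limit. Between the younger ages 9 of the 13 were called lower at P5 (69.2%, against 18.2% of all genes), with a median of -0.45. Aurkb, Cenpf and Ttk were above background in no adult and no P5 channel, so those of them that were measured passed the filter through P10 alone. The counts higher at P10 and lower at P5 than P10 are in that part tied to the filter.

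**Figure D4:**
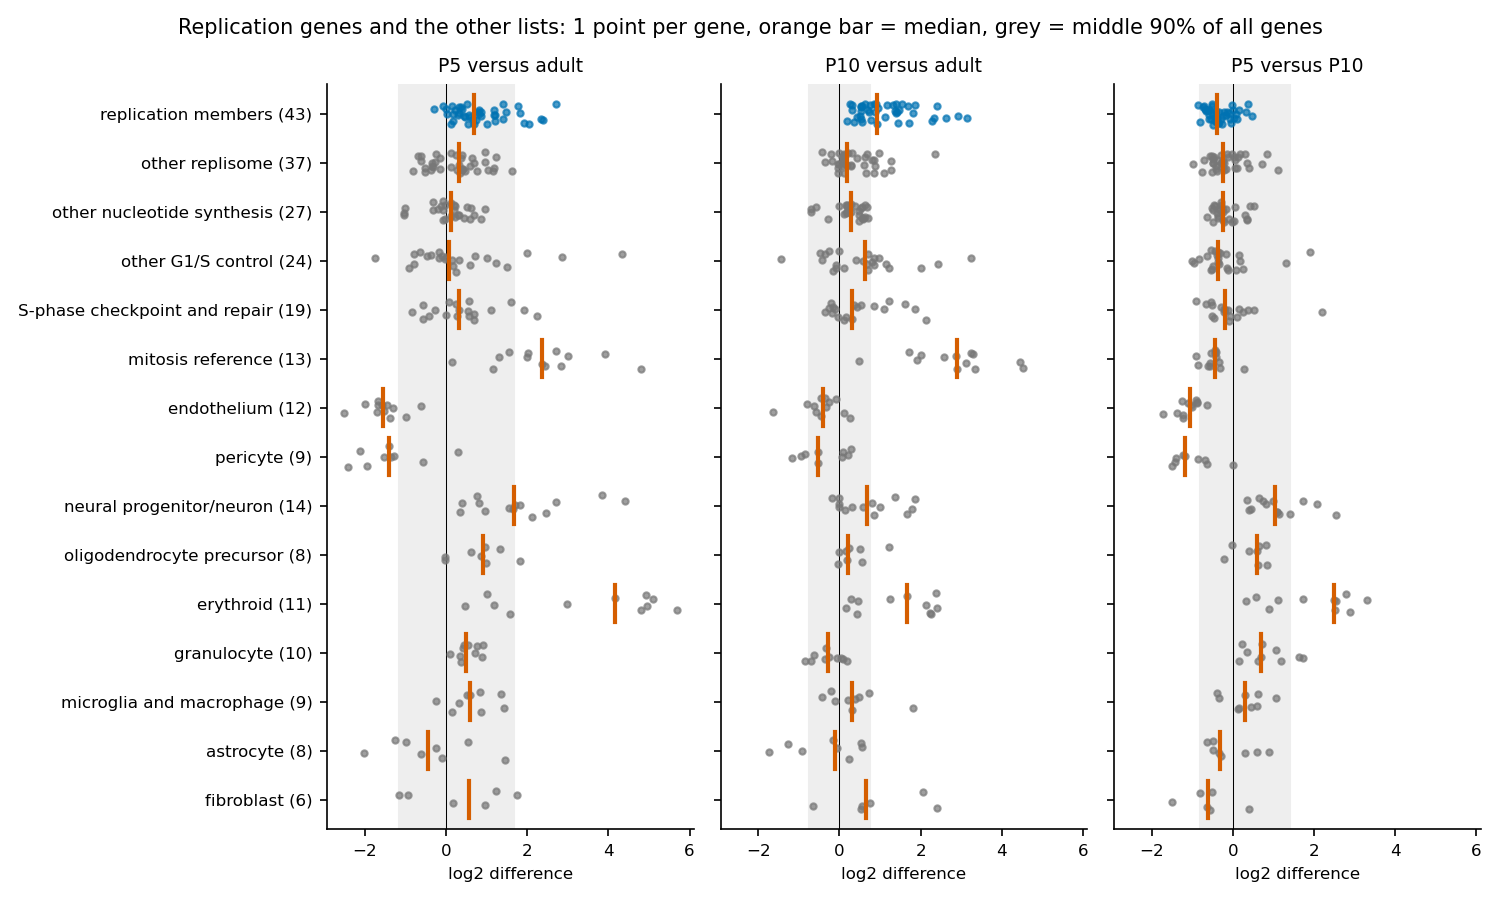
Each panel is 1 comparison and each row a list, with the number of measured genes in brackets, 1 point per gene and an orange bar at the median. The horizontal axis is the log2 difference and the grey band spans most of all genes tested. The replication genes (top row, blue) have medians of 0.70, 0.92 and -0.38, while the endothelial markers have medians of -1.56, -0.40 and -1.06 and the erythroid markers 4.16, 1.67 and 2.50.

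Markers of the cell types that such a preparation can hold also differed between ages. In bulk samples, fewer cells of a type and less RNA per cell cannot be told apart. For comparison with each marker count, 30.1% of all genes were called higher and 23% lower than adult at P5. At P10 these shares were 8.42% and 9.1%. Between P5 and P10, 23% of all genes were called higher at P5 and 18.2% lower. All 12 endothelial markers were called lower at P5 than adult and 3 of 12 at P10, with medians of -1.56 and -0.40, and all 12 were lower at P5 than P10 (median -1.06). The log2 of their summed level was 18.20 and 18.19 in adult, 16.89 and 16.50 at P5, and 17.76 and 17.67 at P10. Of 9 pericyte markers, 8 were lower at P5 than adult and 8 lower at P5 than P10, and the log2 of their summed level was 16.56 and 16.65 in adult, 14.80 and 14.60 at P5, and 15.96 and 15.80 at P10. The members that were lower at P5 than P10 therefore moved in the same direction as the vessel markers, and the members that were higher than adult moved in the opposite one.

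Markers of neural, erythroid and oligodendrocyte precursor cells had medians above adult at both ages, as the members did, but also above P10 at P5. Of 14 markers of neural progenitors and immature neurons, 13 were called higher at P5 than adult, 8 at P10, and 13 higher at P5 than P10, with medians of 1.69, 0.69 and 1.03. The log2 of their summed level was 13.46 and 13.27 in adult, 15.42 and 15.16 at P5, and 14.40 and 14.05 at P10. Of 11 measured erythroid markers, 11 were higher at P5, 6 at P10 and 8 higher at P5 than P10, and the log2 of their summed level was 17.16 and 16.99 in adult, 21.08 and 20.89 at P5, and 18.88 and 19.24 at P10. Rhag was above background in no adult channel. Oligodendrocyte precursor markers were higher for 6 of 8 at P5 and 2 of 8 at P10, with a log2 summed level of 13.23 and 13.07 in adult, 14.13 and 14.36 at P5, and 13.51 and 13.61 at P10.

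Of 10 granulocyte markers 1 was called higher at P5 (10%, against 30.1% of all genes). Of 9 microglia and macrophage markers 3 were higher at P5 (33.3%) and 2 at P10 (22.2%, against 8.42%). Of 8 astrocyte markers 2 were higher (25%) and 3 lower (37.5%, against 23% of all genes) at P5, with medians of -0.43 at P5 and -0.10 at P10. Of 6 fibroblast markers 3 were called higher at each age and 2 lower at P5, with medians of 0.56 and 0.65, and 3 were called lower at P5 than P10 (median -0.61). The fibroblast medians thus had the sign of the members' medians in all 3 comparisons, but the fibroblast genes ranged from -1.16 to 1.75 at P5. Pdgfra is on this list and on that of oligodendrocyte precursors. The log2 of the summed fibroblast level was 14.69 and 14.64 in adult, 15.19 and 14.70 at P5, and 15.85 and 15.60 at P10. Dpt, a fibroblast marker, was above background in no channel of any age. The part of any of these cell types in the levels of the replication genes was not tested.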

How the data were processed

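Per the labels' protocols, microvessels were obtained from homogenised forebrain by sedimentation on density and a filter, and each labelling with Cy5 or Cy3 used 100 ng of RNA. Each array's deposited file is the output of Agilent Feature Extraction with 44397 spots per array, of version 10.5.1.1 per the file headers, whereas the submitters' processing notes name 12.6. The deposited median spot and background signals are linear intensity values. The deposited log ratio, used as an alternative, is a log10 value of red over green. The deposited flags mark outlier spots and spots well above background.

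In R 4.3.3 with limma 3.58.1, the median signals were background-corrected by normexp (offset 50) and normalised within arrays by loess (span 0.3), where outliers and controls had weight 0. On 2 arrays, 4 and 7 spots whose background exceeded the signal by over 100 were given the array's median background and then left out. Spots of a probe were averaged. Accessions were matched to symbols through the RefSeq table of GRCm38.p6 (27427 of 39429 probes). The 27190 probes kept stood well above background in all channels of some age, and the brightest kept probe stood for its gene, for 21941 genes. Levels by age and replicate, and fold bounds, used separate-channel values after loess and Aquantile, and P5, always in Cy5, is open to dye bias there.

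Per slide, 4 ratios were fitted with a dye term and the differences of P5 and of P10 from adult. limma then fitted age and replicate over all genes (residual degrees of freedom 2, prior 2.91), with p-values adjusted by the Benjamini-Hochberg method per comparison. Replicate numbers pair the samples because each marks 1 slide that holds all ages, so values by replicate are values within a batch. The script was tested on simulated data. The members and all lists were chosen with earlier results of these data known. Named genes were the highest, median and lowest members of each role group, members that departed from their group, members with disagreeing probes or a called P5-P10 difference, and the extremes of each other list. A few genes of the other lists are not reported here by name.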

Additional observations from a re-analysis of the deposited data

Results flagged for a closer look

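For 20 members the difference from adult was not the same at P5 as at P10 by a direct test of P5 against P10 (limma adjusted p below 0.05, n = 2 per age). Orc6 was higher at P5, by 0.37 (1 of 43, 2.33%, against 23% of all genes). The other 19 were lower at P5 (44.2%, against 18.2% of all genes). A called difference between these ages, in either direction, was thus common over the whole array. Among helicase genes the P5 minus P10 difference was -0.87 for Mcm2, -0.73 for Cdc6, -0.68 for Mcm4, -0.66 for Mcm6 and Gins2, -0.59 for Mcm3, -0.58 for Cdt1 and -0.38 for Mcm5. Among polymerase and clamp genes it was -0.81 for Pole2, -0.70 for Pcna, -0.51 for Rfc4 and -0.38 for Pola2. On the lagging strand it was -0.59 for Fen1 and -0.41 for Rpa1 and Rpa3. It was -0.53 for Rrm1 and, in chromatin copying, -0.51 for Chaf1b, -0.50 for Chaf1a and -0.45 for Uhrf1.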

How the results depend on the processing

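The members' median stayed above 0 against adult and below 0 for P5 against P10 under every alternative run. At P5 the count of members called higher than adult was 5 with the background model fitted on every spot and 18 with median centring, which ended the calls of Orc6, Mcm2, Mcm3, Prim1, Pold1, Rfc2, Rfc4, Fen1, Rrm1, Dut, Dnmt1 and Ccne1. Over all genes, 2769 were called higher at P5 with every spot and 5019 with median centring. With the deposited log ratio 1 member, Pole2, was called lower. The P5 median was 0.37 with every spot, 0.85 with the deposited log ratio, 0.48 with median centring, 0.68 with no filter, which adds Ccne2 as a 44th member (0.70 over the same 43), 0.74 for genes above background at all ages, 0.67 with the mean of probes, 0.63 without the P5/P10 arrays, 0.67 on separate channels with or without the replicate block, and 0.68 without the 2 arrays with faulty backgrounds, an alternative added after seeing the data. At P10 the count was 1 with every spot, 20 with median centring and 23 with no replicate block, and the median was 1.28 with the deposited log ratio. The counts over all genes were 101, 666 and 812, in the same order of settings.

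For P5 against P10, the count higher was 0 with every spot, the deposited log ratio, median centring, scaled arrays, no P5/P10 arrays or no replicate block, and 2 with no filter, the mean of probes, no dye term or without the 2 faulty arrays. The count lower was 0 with every spot and 10 with no replicate block, against 0 and 2367 over all genes. With every spot, no gene of the array was called in either direction between P5 and P10. The median was -0.66 with median centring. With median centring Pold1 at P5 came to 0 (adjusted p = 0.993) and Orc6, P5 minus P10, to -0.12. The cause was not tested. With 1 replicate left out the medians ranged from 0.69 to 0.71 at P5, from 0.72 to 1.16 at P10 and from -0.50 to -0.25 for P5 against P10.

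Median centring moved the median of all genes to -0.07, 0.03 and -0.12, and the all-gene counts from 6598 higher and 5049 lower to 5019 and 5751 at P5, and from 5041 and 3993 to 3771 and 5690 for P5 against P10. Members near background in adult (Orc1, Cdc6, Pola2, Ccne2) are limited by signal, and Mcm10 was above background in 5 of 6 adult channels. Orc1 and Pola2 entered the tests through P10 alone, the age at which their levels were highest. A filter at all ages kept 39 members. Of these, 29 were called higher than adult at P5 and 32 at P10, and 18 were called in either direction between P5 and P10. The same filter kept 18822 genes in all, of which 5824 were called higher than adult at P5 and 1669 at P10. Between P5 and P10, 4665 of all genes were higher at P5 and 3758 lower. The share of members called in either direction was thus close to that of all genes.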

Other observations

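Genes of the S-phase checkpoint and of repair at the fork, a list beside the 44, split at P5: of 19 measured, 9 were called higher than adult (47.4%, against 30.1% of all genes) and 4 lower (21.1%, against 23%), and 6 were called higher at P10 (31.6%, against 8.42%) (medians 0.31 and 0.30). Fanca, of the Fanconi anaemia core complex, was higher by 2.24 at P5 and 1.86 at P10, and Exo1, a nuclease of mismatch repair and end resection, by 1.61 and 2.14. Brca2, which acts in homologous recombination, was higher by 1.1 at P5 and 1.22 at P10. Ung, the uracil glycosylase, was 1.93 above adult at P5 with a wide SE of 0.53 and lay at -0.26 at P10. The checkpoint clamp genes Hus1 and Rad1 differed by -0.83 and -0.42 at P5, and the clamp loader gene Rad17 by -0.56, as did Rmi1, of the complex that dissolves recombination intermediates.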
